A study of Mus musculus with 11 samples.

Results

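The 39 genes described here code for the enzymes that make, modify and break down sphingolipids and the long-chain fatty acids they carry. They were chosen by name from these pathways, and every probe set of the array annotated to exactly 1 of them was taken. Of the 39 genes, 37 had such a probe set, with 84 probe sets among the 45101 of the array. Ormdl2 and Ormdl3 lay only on probe sets shared with another gene and are not reported. In all, 36 genes were tested, because Sphk1 did not pass the filter on dim probe sets.

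Sphingolipids start with serine palmitoyltransferase, which joins serine to a fatty acid; ceramide synthases add a further fatty acid, and the resulting ceramide receives a head group. In oligodendrocytes, which wrap axons of the central nervous system with myelin, the main head group is galactose. Galactosylceramide and its sulfated form, sulfatide, are characteristic lipids of myelin, and much of their fatty acid is very long and hydroxylated. Loss of enzymes that break these lipids down causes human leukodystrophies.

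The study hybridised RNA to 11 Affymetrix arrays of mouse genes. The 3 knockout arrays held oligodendrocytes of MRF fl/fl; Olig2 wt/cre mice, in which a Cre recombinase at the Olig2 gene can delete both copies of Myrf (MRF in the labels), a transcription factor gene. The 4 control arrays held oligodendrocytes of MRF wt/fl; Olig2 wt/cre littermates, which therefore also carried Cre, 1 changed copy of Olig2 and 1 copy of Myrf open to deletion. Both were differentiated for 4 days in medium that held T3, a thyroid hormone, at 40 ng/ml and lacked PDGF-AA. The 4 progenitor arrays held cells kept for 6 days in PDGF at 10 ng/ml, with no genotype given beyond the word control. All cells came from brains at postnatal day 7 and were selected on antibody to PDGFR-alpha after microglia were depleted on the lectin BSL1. Nothing in the labels says whether replicates were separate animals or cultures, so a p-value here reflects the spread among these arrays alone, and that spread may be technical. Cultures were measured in bulk, so fewer cells of a type and less RNA per cell cannot be told apart.

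Signals are MAS 5.0 intensities, scaled by the authors to a target of 500 on each array. A signal compares arrays for 1 probe set and ranks no gene against another. Myrf, the targeted gene, had signals of 2849, 1904 and 2223 on knockout arrays, 7374, 6614, 7517 and 6215 on control arrays and 752, 6848, 1135 and 971 on progenitor arrays. The 3 knockout arrays lay below every control array, yet progenitor replicate 2 lay among the controls. That progenitor array stood apart in other ways: its signal of Mag, a myelin protein gene, was 2957, compared with 107 to 622 for its fellow progenitors. Gapdh has control probe sets at both ends of its transcript, and their 5′ to 3′ signal ratio, which drops as RNA is shortened, was 0.332 and 0.12 on progenitor replicates 1 and 4, 1.229 and 1.146 on replicates 2 and 3, and 1.263 to 1.407 on the oligodendrocyte arrays. Markers of other cells were checked as well. The summed signal of 10 astrocyte markers was 89439 to 95732 on knockout arrays, 58103 to 80096 on control arrays and 5415 to 10791 on progenitor arrays. That of 7 markers of smooth muscle, pericytes and fibroblasts was 4653 to 7894 on knockout, 764 to 2700 on control and 227 to 527 on progenitor arrays. Each of the 7 microglial and 3 endothelial markers missed the filter, with highest signals of 152.2 and 42.7. The 6 oligodendrocyte markers summed to 51854 to 59296 on knockout, 67617 to 81398 on control and 30006 to 74974 on progenitor arrays. Of these, only Mag and Mog passed the threshold as lower in the knockout, and Mog was bright enough to be tested on control arrays alone. Mbp and Cnp, with log2 differences of -0.23 and -0.22, did not pass. On Mbp every knockout array still lay below every control array, and on Cnp the groups overlapped. The Cnp signal of control replicate 1, 26673, was the highest on that array. Whether differences are understated at such bright signals was not tested. Sox10 (0.26) and Olig2 (0.35) did not pass either, and on both every knockout array lay above every control array. The 3 progenitor markers summed to 7078 to 8330 on knockout, 5909 to 8810 on control and 15178 to 34535 on progenitor arrays. Neuronal markers, 4 of 6 past the filter, summed to 318 to 573 on knockout, 457 to 1557 on control and 741 to 1189 on progenitor arrays.

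Knockout and control oligodendrocytes were compared to ask which of these genes depend on Myrf during differentiation. In the limma fit of all 11 arrays, 4 genes fell in the knockout. They were Cers2, the ceramide synthase for very long fatty acids (1.97-fold lower), the elongases Elovl1 (1.69-fold) and Elovl6 (2.39-fold), and ceramide kinase, Cerk (3.13-fold). St8sia1, which makes the ganglioside GD3, rose 2.28-fold. Of the 36 genes tested, 31 did not pass an adjusted p of 0.05. Over all 10069 genes 7.53% passed, 3.88% lower and 3.64% higher. The median log2 difference was -0.21 over the 36 genes and 0.03 over all genes. In 12 of the 36 all knockout arrays lay below all control arrays, and in 5 all lay above, against 14.2% and 17.4% of all genes.

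This count depended on how the spread was estimated. The fit of all 11 arrays takes part of a gene's spread from the progenitors, of which replicate 2 stood apart. With only the oligodendrocyte arrays fitted, 10 of the 36 genes were lower and 2 higher, beside 7.47% and 8.29% of all genes. Myrf itself, at a log2 difference of -1.58, did not pass in the fit of all 11 arrays (adjusted p = 0.127). It passed with only the oligodendrocyte arrays fitted (adjusted p = 0.000257). The fit with the replicate number as a block, which also leaves out the progenitors and control replicate 4, gave 13 and 1, beside 9.24% and 13%. Without progenitor replicate 2 they were 8 and 1, beside 6.51% and 6.6%. The genes that joined Cers2, Elovl1, Elovl6 and Cerk in the block fit were Sptlc1, Degs1, Fa2h, Ugt8a, Gal3st1, Elovl7, Hsd17b12, Ugcg and Sgms2, whose blocked values stand with them below. Of these 9, Sptlc1, Fa2h, Ugt8a, Elovl7, Ugcg and Sgms2 also passed with only the oligodendrocyte arrays fitted and no block. The labels give replicate numbers only and do not say that same-numbered arrays were paired. Astrocyte markers were higher on every knockout array in sum, although 0 of 10 passed the threshold in the fit of all 11 arrays. Under the block Aqp4, Aldh1l1, Slc1a2, Slc1a3, S100b and Fgfr3 passed, all higher (adjusted p = 0.0149 to 0.0421). Gfap, Gja1, Aldoc and Slc4a4 did not. With only the oligodendrocyte arrays fitted and no block, S100b alone passed (adjusted p = 0.0187). In the fit of all 11 arrays, 2 of the 3 tested markers of smooth muscle, pericytes and fibroblasts rose. The part of these astrocyte and other markers in the differences was not tested.

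**Figure D1:**
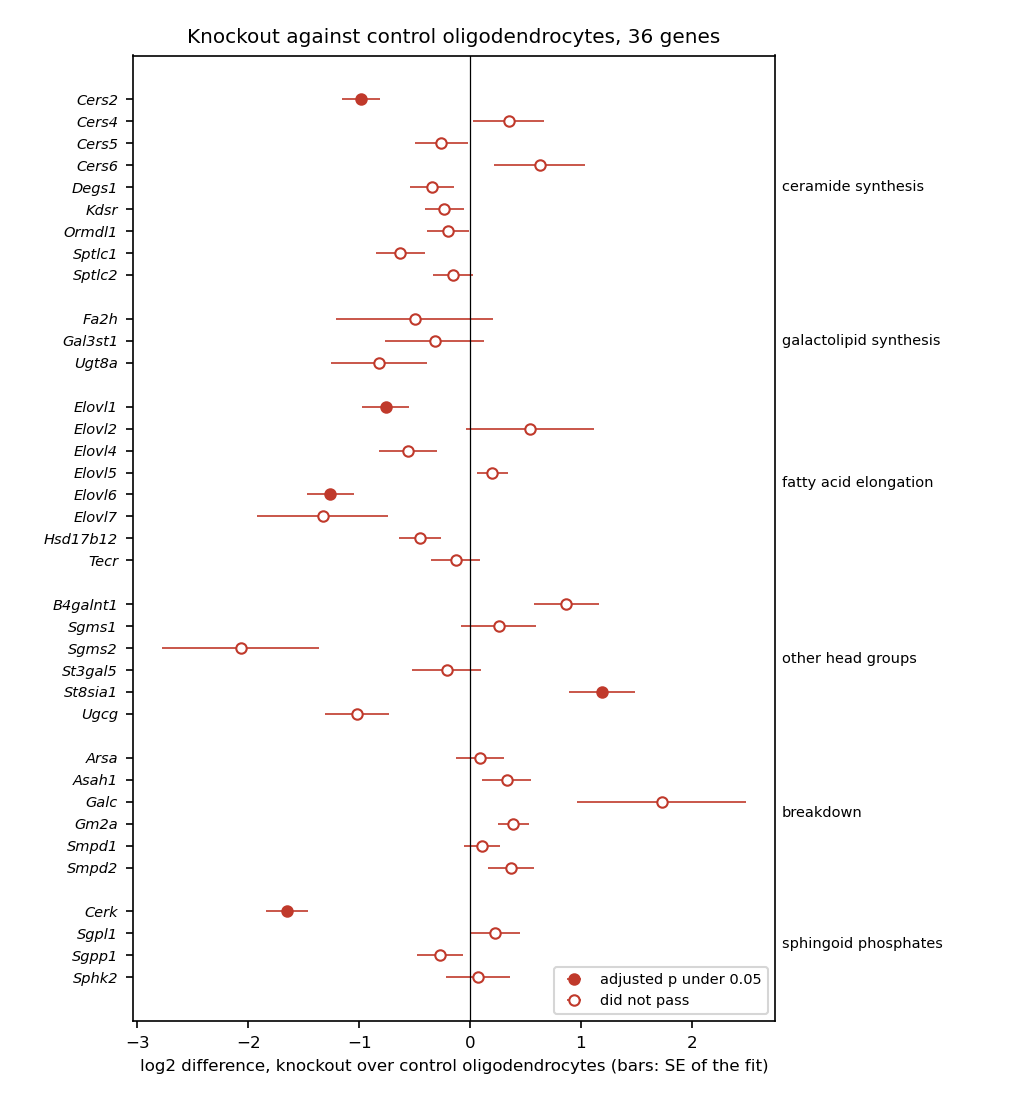
Log2 difference of each of the 36 tested genes between knockout and control oligodendrocytes (x axis), by role down the page. Points are fitted differences, bars are SE, and filled points have an adjusted p under 0.05. Cers2, Elovl1, Elovl6 and Cerk are filled to the left of 0 and St8sia1 to the right, while all 6 breakdown genes lie to the right of 0 with open points.

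Control oligodendrocytes were set against progenitors to follow these genes through differentiation. Of the 36 genes, 19 rose and 4 fell, while 54% of all genes passed, 24.4% higher and 29.6% lower. All 3 galactolipid genes rose: Fa2h by 8.92-fold, Ugt8a by 3.14-fold and Gal3st1 by 2.55-fold. So did 6 of 9 ceramide genes and 5 of 8 elongation genes. St8sia1, B4galnt1, Elovl2 and Galc fell, the last with a direction that its probe sets do not settle. B4galnt1 and Elovl2 passed the filter on dim probe sets through progenitor arrays alone, so their falls are not independent of it. The median log2 difference was 0.57 over the 36 genes and -0.09 over all genes. All control arrays lay above all progenitor arrays in 18 of the 36 and below them in 3, against 20.1% and 23.7% of all genes.

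Knockout oligodendrocytes were compared with the same progenitor arrays, so both comparisons share them. There 12 of the 36 genes rose and 4 fell, where 50.6% of all genes passed, 23.8% higher and 26.8% lower, with a median log2 difference of 0.41 over the 36 and -0.05 over all. All knockout arrays lay above all progenitor arrays in 12 of the 36 and below them in 5, against 23.5% and 26.4% of all genes. Elovl6, Ugcg, St8sia1 and Sgpp1 fell. All 10 astrocyte markers rose in both oligodendrocyte groups: Gfap had signals of 16477, 15352 and 16881 on knockout arrays, 17212, 14658, 15220.2 and 15886 on control arrays and 87.5, 61.8, 73.1 and 100.3 on progenitor arrays. Their part in the differences from progenitors was not tested.

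**Figure D2:**
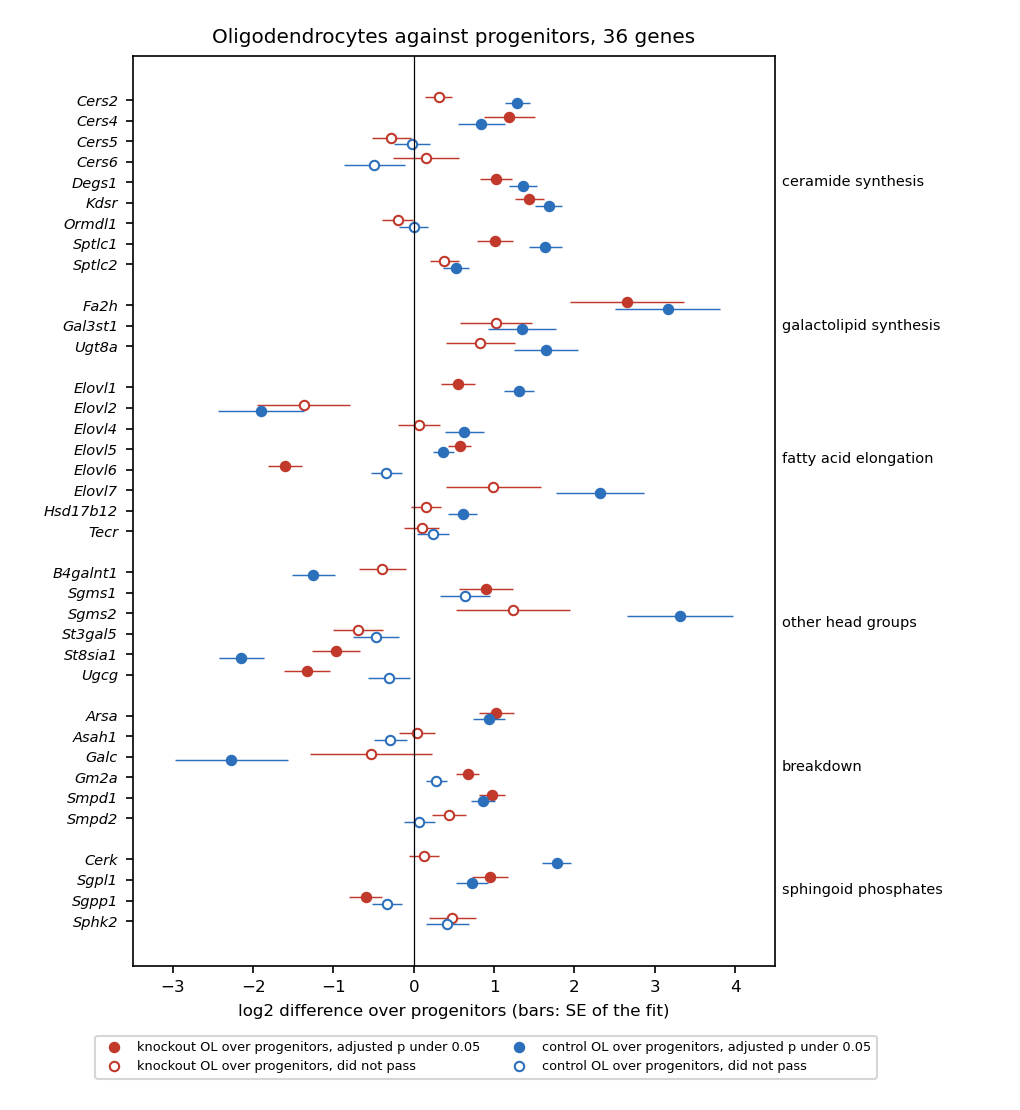
Log2 difference over progenitors (x axis) for the 36 tested genes, by role: knockout oligodendrocytes in red and control oligodendrocytes in blue, with SE bars and filled points for an adjusted p under 0.05. Cers2, Cerk, Sgms2 and Elovl7 lie clearly right of 0 in blue and nearer 0 in red, Elovl6 lies left of 0 in red, and Arsa, Smpd1 and Kdsr lie close together in both.

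Ceramide synthesis begins with Sptlc1 and Sptlc2, the subunits of serine palmitoyltransferase. Sptlc1 had signals of 2207, 2255 and 2179 on knockout arrays, 3788, 3449, 3928 and 2736 on control arrays and 949, 1404, 1380.0 and 767 on progenitor arrays. All 3 groups stood apart, with knockout arrays between progenitors and controls. The log2 difference was 1.01 ± 0.22 for knockout over progenitors (SE of the fit, adjusted p = 0.0029) and 1.64 ± 0.21 for control over progenitors (adjusted p = 6.93e-05). Knockout over control gave -0.63 ± 0.22, with an adjusted p of 0.117 in the main fit and 0.00996 under the replicate block. Another probe set of Sptlc1 gave -1.35 for knockout over progenitors (adjusted p = 0.0266 in the fit of all probe sets), the opposite direction. The mean of its probe sets passed neither for knockout (-0.09, adjusted p = 0.789) nor for control over progenitors (0.38, adjusted p = 0.217). Sptlc2 had signals of 673, 733 and 815 on knockout arrays, 876, 718, 1011 and 713 on control arrays and 515, 529, 645 and 580.0 on progenitor arrays. Its progenitor arrays were the lowest and the oligodendrocyte groups overlapped, with 0.53 ± 0.16 for control over progenitors (adjusted p = 0.0171). Ormdl1, which restrains that enzyme, passed in no comparison, with log2 differences of -0.20 to 0.00.

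Kdsr, which reduces the first product, had signals of 755, 881 and 1075 on knockout arrays, 912, 982, 1306 and 1055 on control arrays and 322, 329, 286 and 341 on progenitor arrays. Every oligodendrocyte array was above every progenitor array. Knockout cells were 2.72-fold above progenitors (log2 1.44 ± 0.18, adjusted p = 7.55e-05) and control cells 3.2-fold (log2 1.68 ± 0.17, adjusted p = 1.43e-05). The direct difference of knockout over control was -0.23 ± 0.18 (adjusted p = 0.508). Degs1, the desaturase that completes ceramide, had signals of 6181, 6892 and 7438 on knockout arrays, 8727, 8301, 9531 and 8085 on control arrays and 3405, 3372, 2342 and 4716 on progenitor arrays. Knockout arrays lay below all control arrays and above all progenitor arrays. Knockout over control was -0.34 ± 0.20, with an adjusted p of 0.356 in the main fit. The adjusted p was 0.0425 under the block and 0.0585 with only the oligodendrocyte arrays fitted. Over progenitors the knockout difference was 1.02 ± 0.20 (adjusted p = 0.0014) and the control difference 1.36 ± 0.18 (adjusted p = 0.000121).

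Ceramide synthases differ in the fatty acid they add. Cers2, which adds very long ones and is the main form in myelinating cells, had signals of 2834, 2658 and 2944 on knockout arrays, 5443, 5098, 7359 and 4629 on control arrays and 2140.4, 2307, 2057 and 2559 on progenitor arrays. Knockout arrays were below every control array and only just above the progenitors, whose highest array was 2559. The log2 difference was -0.98 ± 0.17 for knockout over control (adjusted p = 0.00432), 0.31 ± 0.17 for knockout over progenitors (adjusted p = 0.146) and 1.29 ± 0.16 for control over progenitors (adjusted p = 6.13e-05). The fall in the knockout passed the threshold under all 22 alternative settings. Cers4 had signals of 623, 1085 and 792 on knockout arrays, 648, 752, 393 and 852 on control arrays and 378, 321, 527 and 226 on progenitor arrays. It rose over progenitors by 1.19 ± 0.32 in knockout cells (adjusted p = 0.00858) and 0.84 ± 0.29 in control cells (adjusted p = 0.0295), and the oligodendrocyte groups overlapped. The control call was lost without control replicate 1, 2 or 4 or progenitor replicate 4 (adjusted p up to 0.086), and its other probe set passed in no comparison. Cers5 and Cers6, which favour shorter fatty acids, passed in no comparison, and Cers6 spanned 97.9 to 435 among control arrays.

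The galactolipid branch holds 3 genes, and none passed in the main fit between knockout and control. Ugt8a transfers galactose to ceramide. Its signals were 11864, 9467 and 12168 on knockout arrays, 20402, 18768, 21014 and 18386 on control arrays and 3477, 16722, 7726 and 3357 on progenitor arrays. Knockout arrays were all below the lowest control array, and progenitor replicate 2 lay between these groups. The knockout stood at -0.82 ± 0.43 relative to control, with an adjusted p of 0.305 in the main fit, 0.00134 with only the oligodendrocyte arrays fitted, 0.00191 under the block and 0.0442 without progenitor replicate 2. Knockout over progenitors was 0.83 ± 0.43 (adjusted p = 0.129), which passed without progenitor replicate 2 (adjusted p = 0.00102) and was -0.03 without progenitor replicates 1 and 4 (adjusted p = 0.929), and control over progenitors was 1.65 ± 0.40 (adjusted p = 0.00488). A further probe set of Ugt8a had signals of 3038, 2215 and 1935 on knockout arrays, 8436, 7968, 8157 and 5852 on control arrays and 121, 1753, 279 and 64.6 on progenitor arrays. On it knockout arrays again lay below control arrays, at -1.67 ± 0.78 on the log2 scale (adjusted p = 0.282 over all probe sets), and control cells were 4.78 above progenitors against 1.65 on the first.

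Fa2h hydroxylates the fatty acids of these lipids. Its signals were 3669, 3235 and 2876 on knockout arrays, 5206, 4476, 4920.0 and 3922 on control arrays and 215, 3047, 496 and 183 on progenitor arrays. Knockout arrays were below all control arrays, and progenitor replicate 2 was within the knockout range. Knockout over control was -0.50 ± 0.71, with an adjusted p of 0.742 in the main fit and 0.0209 under the block. Over progenitors Fa2h rose in both knockout (2.65 ± 0.71, adjusted p = 0.00841) and control cells (3.16 ± 0.65, adjusted p = 0.00189). Without progenitor replicates 1 and 4 the knockout difference was 1.38 and did not pass (adjusted p = 0.0748). Gal3st1 adds the sulfate of sulfatide. It had signals of 3651, 2679.5 and 3826 on knockout arrays, 4472, 3866, 5412 and 3291 on control arrays and 1134, 4997, 1173 and 1070.2 on progenitor arrays. Knockout and control arrays overlapped, and progenitor replicates 1, 3 and 4 lay far below both while replicate 2 was above every array but 1. Against progenitors the knockout stood at 1.02 ± 0.45 (adjusted p = 0.075) and the control at 1.35 ± 0.42 (adjusted p = 0.0167). The knockout difference passed without progenitor replicate 2 (adjusted p = 4.28e-05), and the control call was lost without progenitor replicate 1 or 4 (adjusted p = 0.0524 and 0.0507). Set against control, the knockout gave -0.32 ± 0.45, with an adjusted p of 0.74 in the main fit. The adjusted p was 0.0418 under the block and 0.272 with only the oligodendrocyte arrays fitted.

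**Figure D3:**
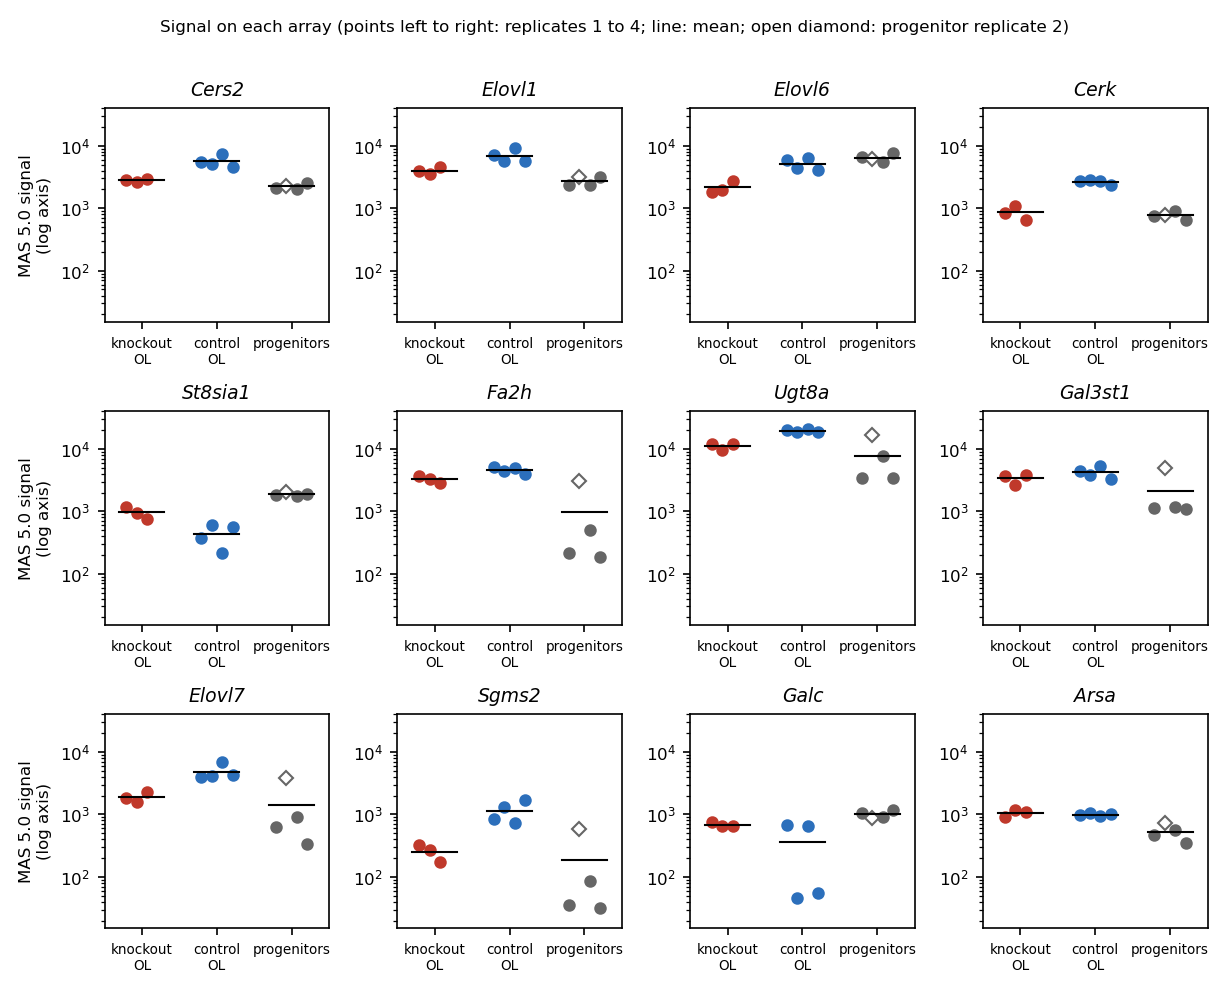
MAS 5.0 signal on each array (log axis) for 12 genes, with groups from left to right knockout oligodendrocytes (n = 3), control oligodendrocytes (n = 4) and progenitors (n = 4); points are arrays in replicate order and lines are means. Progenitor replicate 2, drawn as an open diamond, sits with the oligodendrocyte arrays for Fa2h, Ugt8a, Gal3st1, Elovl7 and Sgms2 and with its own group for Cers2, Cerk and St8sia1.

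The DNA before the start of Ugt8a and Gal3st1, as RefSeq gives it on GRCm38.p6, is shown because these genes rose together over progenitors and direct the galactolipid branch. Capitals mark the motifs searched, on either strand. The stretch of Ugt8a covers chr3:125938683-125938902 on the minus strand and holds 2 overlapping GC boxes. That of Gal3st1 covers chr11:3983386-3983635 on the plus strand, before 1 of 3 starts listed, and holds 1 CCAAT box.

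Ugt8a: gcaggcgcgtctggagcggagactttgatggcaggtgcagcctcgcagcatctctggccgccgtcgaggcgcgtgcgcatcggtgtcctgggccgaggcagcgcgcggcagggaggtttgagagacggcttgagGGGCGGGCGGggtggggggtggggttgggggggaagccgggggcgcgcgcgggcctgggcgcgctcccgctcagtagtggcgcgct
Gal3st1: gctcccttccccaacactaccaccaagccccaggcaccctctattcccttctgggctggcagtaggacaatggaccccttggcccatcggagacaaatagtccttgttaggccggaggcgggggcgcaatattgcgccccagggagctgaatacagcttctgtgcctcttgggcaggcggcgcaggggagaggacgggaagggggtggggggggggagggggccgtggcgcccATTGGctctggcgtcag

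Across the promoter table, 36 of the 39 genes matched, with 54 starts. The GC box GGGCGG stood within 250 bases before 57.4% of these starts and before 32.7% of all 32851 starts. CCAAT stood before 40.7% and 33.8%, and the E-box CACGTG before 16.7% and 6.02%. CTGGCAC or CTGGTAC, letters of the motif described for Myrf, stood before 1 start, of Sgms1 (1.85%), and before 5.93% of all starts. All were searched on both strands, starts of 1 gene can share bases, and a match is only a description of the letters in this window.

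Fatty acids are lengthened by an elongase that sets the substrate and by shared enzymes that complete each round. Elovl6, which acts on the shorter saturated acids, had signals of 1834, 1925 and 2692 on knockout arrays, 5978, 4347, 6391 and 4055 on control arrays and 6558, 6068, 5578 and 7753 on progenitor arrays. Every knockout array was below every array of both other groups, which overlapped. The log2 difference was -1.26 ± 0.21 for knockout over control (adjusted p = 0.00289), -1.60 ± 0.21 for knockout over progenitors (adjusted p = 9.37e-05) and -0.34 ± 0.19 for control over progenitors (adjusted p = 0.155). A further probe set also fell, at -1.30 in knockout over control (adjusted p = 0.0287 over all probe sets). Elovl1, which makes very long saturated acids, had signals of 3919, 3482 and 4657 on knockout arrays, 7106, 5716, 9118 and 5646 on control arrays and 2329, 3182, 2319 and 3211 on progenitor arrays. On this probe set the 3 groups did not overlap, with knockout arrays between the others. Knockout over control was -0.76 ± 0.21 (adjusted p = 0.0459), a call lost under 10 of 22 alternative settings, among them without any 1 knockout array, control replicate 1, 2 or 3, or progenitor replicate 1 (adjusted p up to 0.206). In the fit of all probe sets none of its 4 passed for knockout over control (adjusted p = 0.0608 to 0.544). All were below 0, and on 1 of them, at -0.42, knockout and control arrays overlapped. Knockout over progenitors was 0.55 ± 0.21 (adjusted p = 0.0433), which was lost under 11 settings, among them without any 1 knockout array, control replicate 1 or 2, or progenitor replicate 1 or 3 (adjusted p up to 0.157). For control over progenitors it was 1.31 ± 0.19 (adjusted p = 0.000209).

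Elovl7, a further elongase of saturated acids, had signals of 1829, 1584 and 2259 on knockout arrays, 4033, 4196, 6982 and 4241 on control arrays and 637, 3827, 909 and 337 on progenitor arrays. Knockout arrays were all below the control arrays, and progenitor replicate 2 lay between them. Relative to control cells the knockout value was -1.33 ± 0.59, with an adjusted p of 0.221 in the main fit and 0.00184 under the block. Knockout over progenitors was 0.99 ± 0.59 (adjusted p = 0.181) and control over progenitors 2.32 ± 0.55 (adjusted p = 0.00416). All 6 probe sets passed for control over progenitors, and 4 of the other 5 passed for knockout over progenitors, at up to 2.16 (adjusted p = 0.0119 to 0.0482 over all probe sets). Elovl4, which makes the longest acids, had signals of 999, 1047 and 696 on knockout arrays, 1296, 1243, 1594 and 1223 on control arrays and 653, 1213, 1119 and 602 on progenitor arrays. On this probe set control arrays were above those of both other groups, which overlapped, and the difference passed over progenitors (0.63 ± 0.24, adjusted p = 0.0455) and not over knockout (knockout over control -0.56 ± 0.26, adjusted p = 0.251). The call over progenitors was lost under 14 settings, among them without any 1 control array, progenitor replicate 1 or 4, or knockout replicate 1 or 2 (adjusted p up to 0.128). The other probe set gave -0.18 for control over progenitors, with progenitor replicates 2 and 3 above every control array, and the mean of both was 0.22 (adjusted p = 0.571). Hsd17b12, the reductase shared by all elongases, had signals of 6390.1, 6451 and 7598 on knockout arrays, 8698, 7519, 11791 and 9736 on control arrays and 7219, 5449, 4845 and 7264 on progenitor arrays. Control cells were above progenitors by 0.61 ± 0.18 (adjusted p = 0.0121) with no overlap, a call lost with array weights (adjusted p = 0.0711). Its knockout and control arrays overlapped slightly, at -0.45 ± 0.19, with an adjusted p of 0.188 in the main fit. The adjusted p was 0.0402 under the block and 0.0764 with only the oligodendrocyte arrays fitted. Tecr, the last enzyme of each round, passed in no comparison.

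Elovl5 and Elovl2 lengthen polyunsaturated acids. Elovl5 had signals of 10112, 11148 and 10466 on knockout arrays, 8972, 9714, 8866 and 9335 on control arrays and 8653, 5661, 7127 and 7291 on progenitor arrays. On this probe set knockout arrays were the highest, above all control arrays, which were above all progenitor arrays. Knockout over progenitors was 0.57 ± 0.14 (adjusted p = 0.00586) and control over progenitors 0.37 ± 0.13 (adjusted p = 0.0305), while knockout over control, 0.20 ± 0.14, did not pass (adjusted p = 0.473). The control call was lost without control replicate 1, 2 or 4 or progenitor replicate 2 (adjusted p up to 0.0809). On the other probe set progenitor replicates 1 and 4 lay above every oligodendrocyte array, at 0.14 for knockout and -0.01 for control over progenitors, and the mean of both probe sets passed in neither (adjusted p = 0.153 for knockout and 0.414 for control). Elovl2 had signals of 132, 112 and 89.2 on knockout arrays, 53.7, 97.6, 55.7 and 83.4 on control arrays and 551, 61.9, 451 and 522 on progenitor arrays. It was dim on every oligodendrocyte array and on progenitor replicate 2, and far brighter on the other 3 progenitor arrays. Because every control array lay under a signal of 100, the fall is given as at least 2.8-fold (adjusted p = 0.0108). Elovl2 passed the filter through progenitor arrays alone, so this fall is not independent of the filter. Without progenitor replicate 2 Elovl2 also passed for knockout over progenitors, against an adjusted p of 0.0677 with it.

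The stretches before Elovl6 and Elovl5 are shown because their knockout arrays lay apart from the control arrays in opposite directions. That of Elovl6 covers chr3:129532136-129532385 on the plus strand of GRCm38.p6, overlaps the annotated gene Gm35986 and holds none of the motifs. That of Elovl5 covers chr9:77917115-77917364 on the plus strand and holds 1 E-box and 2 CCAAT boxes.

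Elovl6: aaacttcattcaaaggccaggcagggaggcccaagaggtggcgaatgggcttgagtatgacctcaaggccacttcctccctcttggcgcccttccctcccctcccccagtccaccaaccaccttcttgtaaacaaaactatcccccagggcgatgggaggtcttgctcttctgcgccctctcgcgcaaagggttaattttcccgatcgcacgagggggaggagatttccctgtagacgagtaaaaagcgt
Elovl5: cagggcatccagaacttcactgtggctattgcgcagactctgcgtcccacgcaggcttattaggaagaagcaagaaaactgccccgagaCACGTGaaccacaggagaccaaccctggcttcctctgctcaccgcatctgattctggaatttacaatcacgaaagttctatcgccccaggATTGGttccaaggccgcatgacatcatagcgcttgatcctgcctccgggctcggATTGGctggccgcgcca

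Other head groups turn ceramide into sphingomyelin, glucosylceramide or gangliosides. Sgms2, a sphingomyelin synthase, had signals of 318, 270.3 and 174 on knockout arrays, 835, 1338, 735 and 1691 on control arrays and 35.9, 594, 85.2 and 31.9 on progenitor arrays. Knockout arrays were below all control arrays, and progenitor replicate 2 lay between these groups while the other progenitor arrays were under 100. Knockout over control was -2.07 ± 0.71, the lowest value among the 36 genes, with an adjusted p of 0.109 in the main fit and 0.00264 under the block. Knockout over progenitors was 1.24 ± 0.71 (adjusted p = 0.163), and control over progenitors 3.31 ± 0.66 (adjusted p = 0.00151). Sgms1, the related synthase of the Golgi, had signals of 886, 841 and 1292 on knockout arrays, 672, 929, 769 and 955 on control arrays and 423, 1078, 322 and 501 on progenitor arrays. On this probe set all groups overlapped, and knockout over progenitors alone passed (0.90 ± 0.34, adjusted p = 0.0417), a call lost without any 1 array other than progenitor replicate 2 (adjusted p up to 0.155). Its other probe sets passed over progenitors in both groups. One had signals of 774, 1108 and 1132 on knockout arrays, 581, 563, 520.0 and 566 on control arrays and 185, 377, 201 and 228 on progenitor arrays, with every oligodendrocyte array above every progenitor array, at 1.99 for knockout (adjusted p = 8.99e-05 over all probe sets) and 1.17 for control cells (adjusted p = 0.00139). The other gave 2.14 for knockout (adjusted p = 0.00249) and 1.60 for control cells (adjusted p = 0.00751). Ugcg, which adds glucose, had signals of 162, 206 and 271 on knockout arrays, 350.2, 339.6, 665 and 469 on control arrays and 727, 436, 661 and 433 on progenitor arrays. On this probe set knockout arrays were below all arrays of both other groups. Knockout over progenitors was -1.33 ± 0.29 (adjusted p = 0.00245), and knockout over control -1.02 ± 0.29, with an adjusted p of 0.0503 in the main fit and 0.0145 under the block. The other probe sets of Ugcg gave -0.13 and 0.29 for knockout over progenitors, and the mean of all was -0.39, which did not pass (adjusted p = 0.217).

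St8sia1, the sialyltransferase that makes GD3, a ganglioside of early glial cells, had signals of 1166, 949 and 762 on knockout arrays, 373, 601, 215 and 556 on control arrays and 1821, 2033, 1734 and 1864 on progenitor arrays. The 3 groups did not overlap, progenitors being highest and controls lowest. Knockout over control was 1.19 ± 0.30 (adjusted p = 0.0312), knockout over progenitors -0.97 ± 0.30 (adjusted p = 0.0176) and control over progenitors -2.15 ± 0.28 (adjusted p = 8.05e-05). The rise over control was lost without any 1 knockout array or without control replicate 1, with adjusted p up to 0.142, and the difference of knockout from progenitors without knockout replicate 2 or 3 (adjusted p up to 0.0751). B4galnt1, which extends gangliosides with a further sugar, had signals of 148, 197 and 175 on knockout arrays, 104, 101, 74.7 and 72.5 on control arrays and 278, 336, 213 and 138 on progenitor arrays. Control arrays were below those of both other groups, which overlapped. Control over progenitors was -1.25 ± 0.27 (adjusted p = 0.00251). B4galnt1 passed the filter through progenitor arrays alone, so this fall is not independent of the filter. Knockout over control was 0.87 ± 0.29 (adjusted p = 0.104), which passed at 0.0282 with only the oligodendrocyte arrays fitted and not under the block (0.0609). St3gal5, which starts the ganglioside series, passed in no comparison.

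Breakdown genes had log2 differences above 0 in knockout over control in 6 of 6, where 5379 of all 10069 genes were above 0, and none passed. The highest of the 6, Galc at 1.73, gave 0.01 on its other probe set. Arsa removes the sulfate of sulfatide. Its signals were 916, 1174 and 1094 on knockout arrays, 969.6, 1047, 939.7 and 1024 on control arrays and 462, 730.5, 561 and 353 on progenitor arrays. Both oligodendrocyte groups were above all progenitor arrays and overlapped each other. Arsa rose by 1.03 ± 0.22 in knockout (adjusted p = 0.00242) and 0.94 ± 0.20 in control cells (adjusted p = 0.00243) over progenitors. Smpd1, the lysosomal sphingomyelinase, had signals of 2899.9, 3374 and 2722 on knockout arrays, 2974, 2991, 2709 and 2436 on control arrays and 1629, 1745, 1443 and 1292 on progenitor arrays. It showed the same arrangement of groups, at 0.97 ± 0.16 for knockout (adjusted p = 0.000497) and 0.86 ± 0.15 for control cells (adjusted p = 0.000633) over progenitors. A further probe set of Smpd1 gave -0.08 for knockout and 0.09 for control cells. Gm2a, an activator that presents gangliosides to lysosomal enzymes, had signals of 2530.1, 2928 and 2799.8 on knockout arrays, 2296, 2000.3, 2139 and 1961 on control arrays and 1663, 1581, 1698 and 1960.3 on progenitor arrays. Knockout arrays were the highest, controls next and progenitors lowest, with no overlap. Knockout over progenitors passed (0.67 ± 0.14, adjusted p = 0.00257), and knockout over control did not (0.39 ± 0.14, adjusted p = 0.141). Another probe set of Gm2a passed over progenitors in both knockout (2.45) and control cells (1.74). Asah1, the acid ceramidase, and Smpd2, a neutral sphingomyelinase, passed in no comparison.

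Galc, which removes galactose from galactosylceramide, had signals of 744, 663 and 657 on knockout arrays, 681, 45.4, 645 and 54.5 on control arrays and 1066, 877, 915 and 1171 on progenitor arrays on the probe set that represents it. Control replicates 2 and 4 were under 100, while replicates 1 and 3 were close to the knockout arrays. That probe set gave 1.73 ± 0.76 for knockout over control (adjusted p = 0.211), -0.53 ± 0.76 for knockout over progenitors (adjusted p = 0.577) and -2.27 ± 0.70 for control over progenitors (adjusted p = 0.017). Another probe set of Galc had signals of 258, 483 and 243 on knockout arrays, 306, 301, 326 and 307 on control arrays and 26.4, 54.4, 48.6 and 21.7 on progenitor arrays. On it all oligodendrocyte arrays were above all progenitor arrays, for knockout (adjusted p = 6.19e-05 over all probe sets) and control cells (adjusted p = 3.47e-05), with no size given because every progenitor array was under 100. Knockout over control was 0.01 there. The call on the first was lost without control replicate 4 (adjusted p = 0.0522). The direction of Galc against progenitors is therefore not settled by these arrays.

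Sphingoid phosphates are signalling lipids and the way out of the pathway. Cerk, which phosphorylates ceramide, had signals of 845, 1075 and 656 on knockout arrays, 2776, 2802, 2767 and 2368 on control arrays and 744, 786, 908 and 659 on progenitor arrays. Control arrays stood above those of both other groups, which overlapped. The log2 difference was -1.65 ± 0.19 for knockout over control (adjusted p = 0.000256), 0.13 ± 0.19 for knockout over progenitors (adjusted p = 0.595) and 1.78 ± 0.18 for control over progenitors (adjusted p = 1.29e-05). The fall in the knockout passed under all 22 alternative settings, with adjusted p up to 0.0025. Sgpl1, the lyase that splits sphingosine phosphate irreversibly, had signals of 1305, 1742 and 1190.4 on knockout arrays, 1148, 1489, 967 and 1201 on control arrays and 875, 727, 766 and 532 on progenitor arrays. Both oligodendrocyte groups were above progenitors, by 0.95 ± 0.22 in knockout (adjusted p = 0.00363) and 0.72 ± 0.20 in control cells (adjusted p = 0.01).

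Sgpp1, the phosphatase that returns sphingosine, had signals of 1148, 750.0 and 839 on knockout arrays, 890.1, 1002, 1293 and 1211 on control arrays and 1272, 1167, 1399.6 and 1685 on progenitor arrays. Knockout arrays were below all progenitor arrays, at -0.60 ± 0.21 (adjusted p = 0.0294), and control arrays overlapped both. A further probe set went the other way, at 1.52 for knockout over progenitors (adjusted p = 0.028 over all probe sets), so the direction of Sgpp1 is not settled either. The first call was also lost without knockout replicate 2 or 3 or progenitor replicate 3 or 4 (adjusted p up to 0.129). Of the sphingosine kinases, Sphk2 passed in no comparison. Sphk1, which missed the filter, had signals of 84.8, 194 and 107 on knockout arrays, 71.6, 98.0, 96.1 and 133 on control arrays and 47.1, 10.2, 59.3 and 29.7 on progenitor arrays. Its oligodendrocyte arrays were all above the progenitor arrays, without a test.

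Probe sets of 1 gene often differed in size against progenitors. Of the 84 probe sets 68 passed the filter, and 21 genes had several. For control over progenitors the probe sets of 12 of these genes differed by more than 1 on the log2 scale, those of 7 differed in sign, and those of Galc passed in opposite directions. For knockout over control only 1 gene differed by that much and 4 in sign. Progenitor replicates 1 and 4, with the low 5′ to 3′ ratio of Gapdh, were the lowest arrays on each of the other probe sets of Sgpl1, Degs1 and Hsd17b12. On that of Sgpl1 signals were 602, 580.0, 448 and 560.4 on control arrays, against 18.0, 168, 118 and 24.7 on progenitor arrays, a log2 difference of 2.87 beside 0.72 on the one that represents the gene. Degs1 gave 2.37 beside 1.36, and Hsd17b12 2.10 beside 0.61. The same progenitor arrays were instead the highest of all on another probe set of Sptlc1 (1415 and 2720) and of Elovl5 (10616 and 13782). Those gave -0.80 beside 1.64 for Sptlc1 and -0.01 beside 0.37 for Elovl5. Without progenitor replicates 1 and 4, the differences from progenitors no longer passed for Cers4, Elovl1, Fa2h, Sgms1, Sgpp1 and St8sia1 in knockout cells and for Cers4, Elovl4, Gal3st1 and Galc in control cells, while Elovl2 and B4galnt1 missed the filter. The part of RNA length in these differences was not tested.

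**Figure D4:**
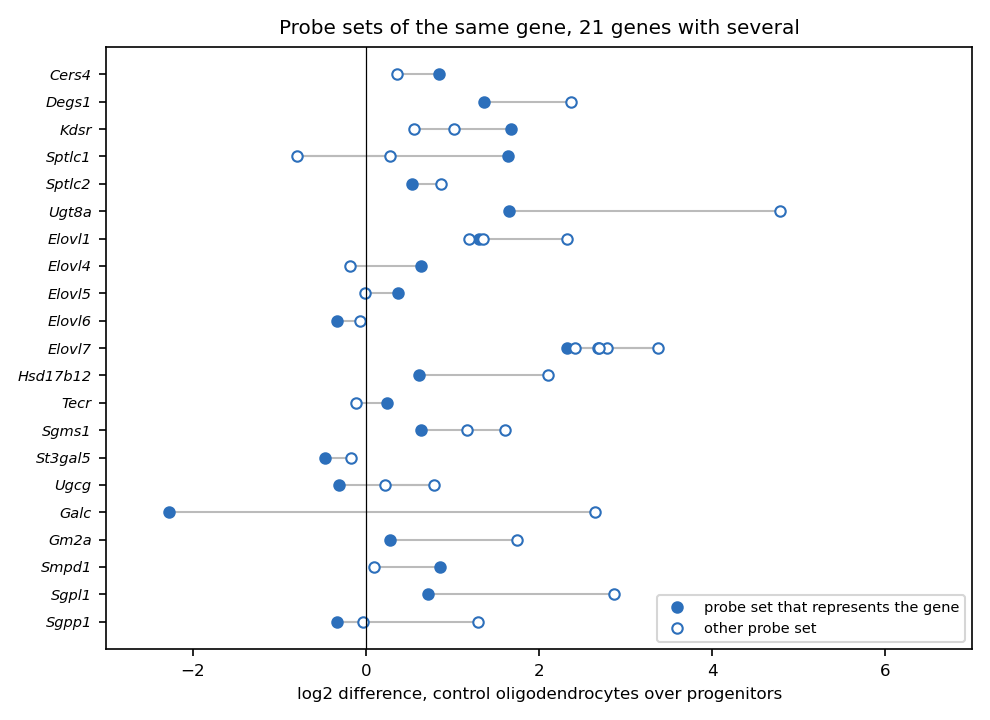
Log2 difference of control oligodendrocytes over progenitors (x axis) on each probe set of the 21 genes with several; filled points are the probe sets that represent the genes and open points the others. Galc has 1 point on each side of 0, the one to the right fitted against progenitor arrays that were all under 100, Ugt8a spans 1.65 to 4.78, and the 6 probe sets of Elovl7 all lie above 2.

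Around these genes, 64 further genes of lipid transport, breakdown and signalling were listed, of which 46 were tested. Between knockout and control, 1 rose and 5 fell, beside 3.64% and 3.88% of all genes. Among the falls, S1pr5, St8sia3 and St8sia5 passed the filter on dim probe sets through control arrays alone. The filter thus selected these genes for bright control arrays, so their falls are not independent of it. Arsb, a lysosomal sulfatase, rose, with signals of 5566, 6238 and 4914 on knockout arrays, 2105, 2731, 1029 and 1572 on control arrays and 577, 1231, 839.5 and 770.1 on progenitor arrays. Knockout arrays were all above the others, at 1.66 ± 0.32 over control (adjusted p = 0.00661). Mal, a raft protein of myelin, fell, with signals of 394, 372 and 304 on knockout arrays, 4619.6, 5222, 10038 and 2179 on control arrays and 17.0, 15.3, 81.2 and 4.0 on progenitor arrays. Its groups did not overlap, and knockout over control was -3.70 ± 0.53 (adjusted p = 0.00115). S1pr5, a receptor for sphingosine phosphate, had signals of 32.7, 31.1 and 5.0 on knockout arrays and 322, 329, 2468 and 209 on control arrays. Every knockout array lay under 100, so the fall is at least 4.36-fold (adjusted p = 0.00777), with control replicate 3 well above its group. St8sia3, a sialyltransferase, had signals of 27.4, 9.4 and 5.6 on knockout arrays and 425, 462, 955 and 388 on control arrays, a fall of at least 4.62-fold (adjusted p = 0.000115). St8sia5 and Cyb5a, named after their values were seen, fell as well. St8sia5, a further sialyltransferase, had signals of 71.4, 87.3 and 83.6 on knockout arrays and 256, 224, 197 and 242 on control arrays (adjusted p = 0.00609). Cyb5a, an electron carrier for lipid desaturation, was 1.79-fold lower (adjusted p = 0.00295).

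Against progenitors, 19 of the 46 rose and 6 fell in knockout oligodendrocytes, beside 23.8% and 26.8% of all genes, and 25 rose and 9 fell in control ones, beside 24.4% and 29.6%. S1pr3, another receptor for sphingosine phosphate, had signals of 7619.9, 9188 and 7062 on knockout arrays, 6285, 9849, 5121 and 6796 on control arrays and 6.5, 31.1, 7.2 and 28.6 on progenitor arrays. It was bright on every oligodendrocyte array and under 100 on every progenitor array, at least 68.3-fold higher in knockout (adjusted p = 9.35e-09) and 58.9-fold higher in control cells (adjusted p = 6.22e-09). In control cells Mal was at least 41.5-fold higher (adjusted p = 9.04e-07) and S1pr5 at least 4.36-fold higher (adjusted p = 0.000302). Here too S1pr5 was tested only because its control arrays were bright. In knockout cells S1pr1 was 11.7-fold higher (adjusted p = 0.000105) and Hacd4, a dehydratase of the elongation family, at least 3.6-fold higher (adjusted p = 8.25e-05). Among those lower, the neutral sphingomyelinase Smpd3 fell in knockout (-1.62 ± 0.33, adjusted p = 0.00195) and control cells (-1.26 ± 0.31, adjusted p = 0.00517). The receptor S1pr2 also fell in both, by 2.18-fold in knockout (adjusted p = 0.0105) and 2.37-fold in control cells (adjusted p = 0.00378). Smpdl3b, related to the acid sphingomyelinase, fell 2.16-fold in control cells (adjusted p = 0.0112), and St8sia3 fell in knockout cells (adjusted p = 0.00423), with no fold given because its signals in both groups were near or under 100. The 10 astrocyte markers rose in the same comparisons, and their part was not tested here.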

How the data were processed

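For each of the 3 knockout oligodendrocyte, 4 control oligodendrocyte and 4 progenitor arrays, RNA was labelled from 1 µg and hybridised. The deposited values are signal intensities that the authors made with MAS5 in GCOS 1.3, per the submitters' processing notes. The series' design text says that each array was scaled to a target of 500. Arrays give no read depth, so their number limits the precision.

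Probe sets were named through GEO's platform annotation: 34958 of 45101 had 1 gene, 932 several and 9211 none. Each gene was represented by its brightest probe set (mean of log2 signals over all arrays), and kept where the signal reached 200 on at least 3 arrays, which left 10069 genes. limma 3.58.1 in R 4.3.3 fitted log2(signal + 16) with a mean per group over all 11 arrays, and p-values were adjusted by Benjamini-Hochberg over all 10069 genes, with a threshold of 0.05. Fold changes are on the log2(signal + 16) scale, which understates dim genes. Where every array of the lower group was under 100, a fold is a lower bound against a floor of 100. A second fit took all 18568 probe sets that passed the filter.

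Replicate numbers from the titles were checked as pairs, by the correlation of deviations from group means. Same-numbered knockout and control arrays gave r = 0.24, 0.24 and 0.21. Pairs of different numbers ran from -0.34 to 0.33, the highest being knockout 3 with control 4. The check therefore does not single out same-numbered pairs. Same-numbered pairs with progenitors were not all above 0. The block fit of a comparison takes only its own groups and the numbers they share, so that of knockout and control leaves out control replicate 4 and the progenitors. Alternatives were other pseudocounts, normalization, filters, probe set rules, samples, array weights and leaving out arrays. On simulated data 43% of genes changed by 1 and 89% of those changed by 2 (log2) were recovered between knockout and control, over 10069 genes. The simulation gave each gene the same spread in all groups, whereas progenitor arrays spread more widely for genes such as Myrf. These shares therefore do not measure recovery in the real comparison.

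The members and the other gene lists were chosen with earlier results of these data known. Values on every array are given for genes past the threshold in any comparison and for Ugt8a, Fa2h, Gal3st1, Galc, Arsa and Cers2; of the further genes, up to 3 with the largest difference in each direction and comparison.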

Additional observations from a re-analysis of the deposited data

Results flagged for a closer look

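Of 72 groups of 4 arrays examined, 5 held an array far from the rest, by the gap to its nearest neighbour over the group's range (Dixon's test); chance gives about 1 in 20. Among progenitors, replicate 2 was high for Gal3st1 (signal 4997.4, gap over range 0.941) and low for Elovl2 (61.9, 0.902). Among control oligodendrocytes, replicate 3 was high for Elovl7 (6981.8, 0.909) and Cers5 (4109.1, 0.866). Replicate 4 was low for Cerk (2367.9, 0.926), yet still above every knockout array.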

How the results depend on the processing

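Of the calls among the 36 genes, 3 of 5 for knockout over control, 15 of 23 for control over progenitors and 6 of 16 for knockout over progenitors passed in the same direction under every alternative that gave a value. The 15 include Elovl2 and B4galnt1, which gave a value under only 17 of the 22 alternatives and missed the filter under the others. For knockout over control, fitting only those groups gave 1587 genes in all, with 10 of the 36 lower and 2 higher; the replicate block gave 2237, with 13 lower; array weights gave 2160, with 9 lower and 4 higher; leaving out progenitor replicates 1 and 4 together gave 8 lower. That block fit, which also drops the progenitors and control replicate 4, added the 9 genes named with it, 6 of which passed without the block when only those groups were fitted, and changed no other call. Leaving out 1 array gave 3 to 8 lower and 0 to 1 higher, and 348 to 1315 genes in all, the fewest without knockout replicate 2 and the most without progenitor replicate 2. For control over progenitors, leaving out 1 array gave 16 to 19 higher and 2 to 4 lower, with 2 without progenitor replicate 1 or 3. The stricter filter left 2 lower and omitting progenitor replicates 1 and 4 left 1. The block, whose numbers do not pair these arrays, gave 15 higher and 4 lower. For knockout over progenitors, leaving out 1 array gave 10 to 16 higher and 2 to 6 lower, with 2 without knockout replicate 2 or 3 and 6 without progenitor replicate 2. The block gave 3091 genes and 6 of the 36 higher; averaging the probe sets of a gene, or omitting progenitor replicates 1 and 4, left 2 lower. Averaging probe sets reversed Sptlc1 (-0.09), Galc (1.06) and Sgpp1 (0.25) for knockout over progenitors and Galc (0.19) for control over progenitors. Omitting progenitor replicates 1 and 4 reversed Ugt8a for knockout over progenitors (-0.03). The cause was not tested. Dim probe sets limit Elovl2, Sphk1 and B4galnt1, and only progenitor arrays brought Elovl2 and B4galnt1 past the filter.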
